A study of Mus musculus with 10 samples.

Results

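The 4 genes described here, Umod, Fetub, Dynap and Teddm3, were dim on the ileum arrays of control mice and reached their highest levels in mice that had induced the transcription factor Sox2 without Oct4. They were chosen by their array probes for that pattern, and they are 4 of 19054 genes tested. The order of the groups with Sox2 alone at the top is therefore what selected them, and their levels and differences are given as a description with no test.

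RNA of the ileum, the last stretch of the small intestine, was measured on 10 one-colour arrays of C57BL/6 mice aged 6 to 8 weeks, 2 arrays for each of 5 groups. A TetON animal switches on its transgene through rtTA, a transactivator that binds the TetOP promoter when doxycycline (DOX) is present. The groups were uninduced mice (TetON-Sox2 without DOX), control mice (rtTA with DOX, lacking the TetOP-Sox2 transgene), Oct4-only mice (TetON-Oct4 with DOX), double mice (TetON-Oct4 X TetON-Sox2 with DOX) and Sox2-only mice (TetON-Sox2 with DOX). DOX was given at 2 mg/ml in water with 1% sucrose for 2 days and uninduced mice were left untreated, so DOX and sucrose cannot be told apart. The labels do not name the promoter behind rtTA. The uninduced and Sox2-only arrays shared a slide, the control and double arrays shared another, and the Oct4-only arrays lay on a slide of their own, so in any comparison across slides the slide and the group cannot be told apart. The 2 arrays of a group are labelled as replicates with no word on separate animals, so a p-value speaks for the spread between arrays, which may be technical, and the number of arrays limits the precision.

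Uromodulin, encoded by Umod, is the most abundant protein of normal urine and is made by the thick ascending limb of the kidney tubule. Fetuin-B, encoded by Fetub, is a plasma glycoprotein secreted by hepatocytes that inhibits ovastacin, the egg protease that hardens the zona pellucida. Dynap encodes a dynactin-associated membrane protein, and Teddm3 belongs to a family of transmembrane proteins named after the epididymis. Sox2 is a foregut and pluripotency factor that binds DNA through an HMG box, often beside Oct4 (encoded by Pou5f1), and the adult ileum is not among the tissues known for any of the 4 genes.

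Each gene had a single 60-base probe, placed by the files on build NCBI36/mm8. The Umod probe lies on chromosome 7 (119254164 to 119254223, minus strand) and the Fetub probe on chromosome 16 (22854997 to 22855056, plus strand). The Dynap probe is named 2310002L13Rik in the files. The Teddm3 probe lies on chromosome 16 (21066787 to 21066846, minus strand) and is named 2310042E22Rik there. Whether the probes lie in coding or untranslated exons was not analysed here.

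Promoters from RefSeq are shown because the 4 genes were picked for one shared pattern; none is shown for Dynap. Each line gives the 250 bases before a start site on build GRCm38.p6, on the strand of the gene. Capitals mark the Sox core motifs ACAAT and ACAAAG and the TATA box TATAAA, searched on both strands. The windows are chr7:119479263-119479512 (minus strand) for Umod, chr16:22918132-22918381 and chr16:22919972-22920221 (plus strand) for the first and second starts of Fetub, and chr16:21153945-21154194 (minus strand) for Teddm3.
Umod: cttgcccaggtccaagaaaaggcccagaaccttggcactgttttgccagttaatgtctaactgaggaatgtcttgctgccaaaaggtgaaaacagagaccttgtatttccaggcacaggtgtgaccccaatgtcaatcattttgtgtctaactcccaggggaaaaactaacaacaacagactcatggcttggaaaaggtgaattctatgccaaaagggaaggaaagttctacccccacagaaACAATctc
Fetub, first start: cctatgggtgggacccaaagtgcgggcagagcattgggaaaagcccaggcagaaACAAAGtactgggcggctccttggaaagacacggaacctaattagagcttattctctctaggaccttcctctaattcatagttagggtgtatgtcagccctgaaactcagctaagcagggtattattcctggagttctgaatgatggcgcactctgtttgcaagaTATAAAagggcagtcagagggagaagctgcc
Fetub, second start: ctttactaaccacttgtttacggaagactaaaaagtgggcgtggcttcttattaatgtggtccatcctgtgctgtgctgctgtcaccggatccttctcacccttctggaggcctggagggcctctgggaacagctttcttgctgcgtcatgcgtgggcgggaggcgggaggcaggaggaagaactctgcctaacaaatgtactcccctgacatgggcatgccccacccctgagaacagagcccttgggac
Teddm3: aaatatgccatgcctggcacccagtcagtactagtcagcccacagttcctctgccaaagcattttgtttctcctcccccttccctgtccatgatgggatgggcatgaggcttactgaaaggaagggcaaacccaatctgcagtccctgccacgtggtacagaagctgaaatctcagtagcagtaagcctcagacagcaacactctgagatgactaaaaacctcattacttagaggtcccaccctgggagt

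The Umod window held ACAAT from 8 to 4 bases before the start. The first Fetub window held ACAAAG from 196 to 191 bases and TATAAA from 31 to 26 bases before the start. No searched motif was in the second Fetub window or in the Teddm3 window, and the octamer ATGCAAAT known for Oct4 was in none of these windows. Of 32851 RefSeq promoter windows of the same length, 27.7% held ACAAT, 16.5% ACAAAG, 12.4% TATAAA and 1.6% the octamer on either strand. The composite of a Sox motif and the octamer, 1 base apart, was in 0 of them.

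Levels are given as the log2 of the processed signal over the 75th percentile of the same array, so 0 is the level of a probe brighter than 75% of probes. Between 63.5% and 70.5% of probes were well above background by the scanner's own flag, the lowest such signal lay between log2 levels of -7.10 and -5.83 depending on the array, and no probe was saturated. The probe of Pou5f1 checked the Oct4 transgene. It stood at 6.20 and 4.79 on the Oct4-only arrays and at 2.64 and 0.92 on the double arrays, and was not well above background elsewhere. The probe of Sox2 was not well above background on any array (-9.07 to -7.72), so it did not show the transgene, and whether the transgene's RNA holds the probe's sequence was not tested. All 18 ileal marker genes of the array were well above background on all 10 arrays, so the ileal label was borne out by its markers.

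Umod read -6.86 and -8.12 on the uninduced arrays, -9.27 and -8.59 on the control arrays and -8.34 and -7.99 on the Oct4-only arrays, and none of these was well above background. It read -0.22 and -3.46 on the double arrays and 2.92 and 2.16 on the Sox2-only arrays, all well above background. The gene was thus detected in both groups that carry TetON-Sox2 and DOX and in no other group, and the arrays of these groups did not overlap. In bulk ileum, more cells with a transcript and more transcript per cell cannot be told apart, here and below. The Sox2-only mean was 2.54 ± 0.54 (SD, n = 2) and the double mean -1.84 ± 2.29. As processed signals, 4274 and 6600 on the Sox2-only arrays stood against 2.66 and 5.88 on the uninduced arrays of the same slide.

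Fetub read -5.79 and -5.64 on the uninduced arrays, where it was not well above background, and -5.86 and -4.32 on the control arrays, where it was. It read -1.83 and -1.58 with Oct4 alone, 1.66 and -0.92 in the double mice and 1.74 and 2.48 with Sox2 alone. Fetub therefore differed from Umod in having a clear signal with Oct4 alone, and its Sox2-only and double arrays came close to each other. The higher double array was just under the lower Sox2-only array, and its processed signal before scaling (3723) was above that of the lower Sox2-only array (2914). Group means ran from 2.11 ± 0.52 with Sox2 alone through 0.37 ± 1.82 (double) and -1.70 ± 0.18 (Oct4) to -5.09 ± 1.09 (control) and -5.72 ± 0.11 (uninduced; SD, n = 2 each), and the last pair overlapped.

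Dynap read -8.20 and -8.10 on the uninduced arrays, -9.29 and -8.60 on the control arrays and -8.33 and -7.98 with Oct4 alone, never well above background. In the double mice it read -4.37 on one array, well above background, and -8.10 on the other, not above it. With Sox2 alone it read 1.16 and -0.58. Dynap was well above background on 3 of 10 arrays, the fewest of the 4 genes, with a Sox2-only mean of 0.29 ± 1.23 against a double mean of -6.23 ± 2.63 (SD, n = 2). The processed signals show the range, at 641 and 1951 with Sox2 alone and at 2.16 and 57.0 in the double mice.

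Teddm3 read -8.16 and -8.02 on the uninduced arrays and -8.07 and -8.49 on the control arrays, not well above background. It read -2.30 and -5.44 with Oct4 alone, -2.37 and -5.15 in the double mice and 0.60 and 0.53 with Sox2 alone. The Oct4-only and double arrays overlapped completely, with means of -3.87 ± 2.22 and -3.76 ± 1.97, and both lay between the dim groups and the Sox2-only mean of 0.57 ± 0.05 (SD, n = 2). Teddm3 had the closest pair of Sox2-only arrays of the 4 genes.

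**Figure D1:**
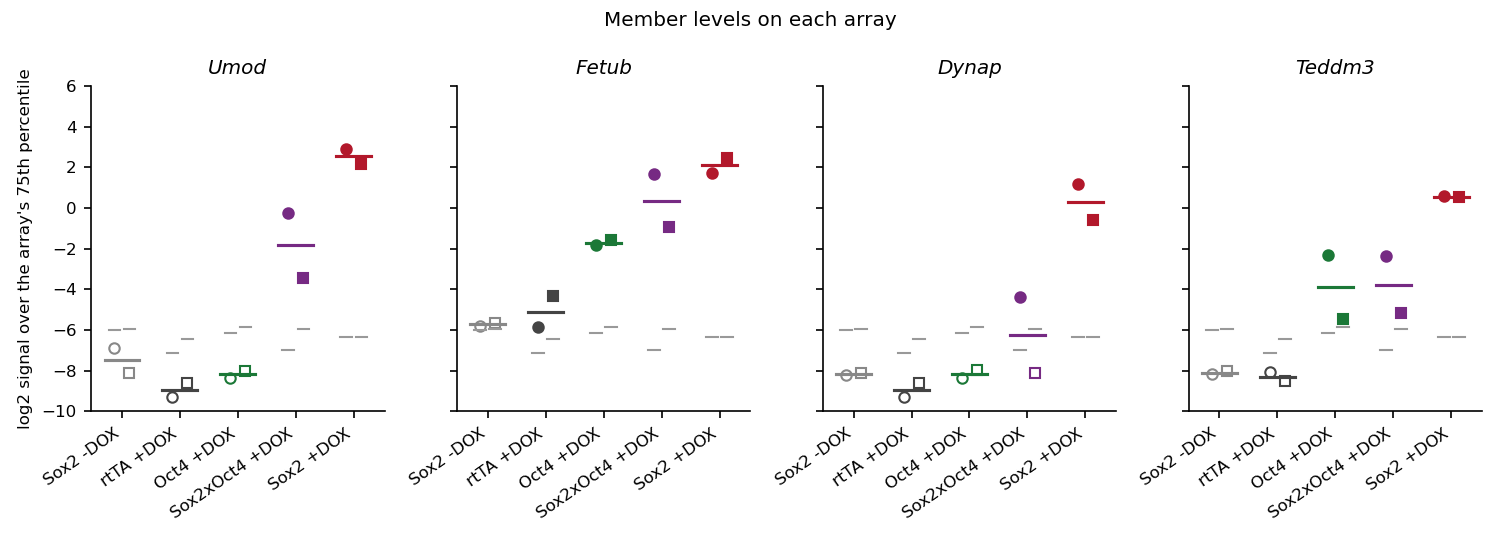
Log2 level over the array's 75th percentile (vertical axis) of the 4 genes on each array, by group (horizontal axis). Circles are replicate 1 and squares replicate 2, filled where the probe was well above background, long bars are group means of 2 arrays, and short grey bars are the lowest level well above background on that array. The Sox2-only arrays lie highest for every gene, and Fetub and Teddm3 also have filled points with Oct4 alone.

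The first question was what induction of Sox2 did within the TetON-Sox2 line, on one slide. Against the uninduced mice, Sox2-only mice had at least 360-fold more Umod signal, at least 227-fold more Fetub, at least 75.8-fold more Dynap and at least 91.8-fold more Teddm3. These are lower bounds because the uninduced arrays were not well above background, and each was taken against the higher of the array's lowest signal well above background and the probe's own signal. Neither group's arrays overlapped for any of the 4, a state that 29.8% of all genes share in that direction. The median of the 4 log2 differences was 8.55 as measured and 7.17 with each at its lower bound, against a median difference of -0.10 over all genes.

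Against control mice, which had DOX but no Sox2 transgene, the Sox2-only signal was at least 634-fold higher for Umod, 147-fold higher for Fetub, at least 133-fold higher for Dynap and at least 162-fold higher for Teddm3. This comparison crosses slides. The arrays of the 2 groups did not overlap for any of the 4 genes, as for 29.4% of all genes in that direction. Control and uninduced mice, which differ in DOX, transgene and slide, were compared as well. Umod, Dynap and Teddm3 were not well above background in either group and have no fold. Fetub was at least 1.54-fold higher in the controls, with overlapping arrays. Both sets of comparisons use the Sox2-only arrays.

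In the double mice, on the slide of the controls, Umod was at least 30.5-fold, Fetub 44.0-fold, Dynap at least 1.45-fold and Teddm3 at least 8.07-fold above the controls. The Dynap value rests on 1 of 2 double arrays that measured it. After scaling, all 4 were higher on both double arrays than on both control arrays (28.7% of all genes). For Dynap this order is between undetected readings on double replicate 2. Its processed signal there (2.16) was under both control signals (2.57 and 2.35), so only the scaling put it higher. With Oct4 alone, Fetub was 10.5-fold and Teddm3 at least 7.45-fold above the same controls, while Umod and Dynap were not well above background in either group and have no fold. All 4 were again on the higher side without overlap after scaling (22.8% of all genes), for Umod and Dynap between levels below detection. Before scaling, the processed signals of Umod and Dynap overlapped between these groups. They were 2.40 and 2.14 with Oct4 alone against 2.62 and 2.38 in controls for Umod. For Dynap they were 2.41 and 2.16 against 2.57 and 2.35. The higher side thus holds by signal for Fetub and Teddm3 only. With both factors the median of the 4 log2 differences was 4.99 as measured and 3.97 with 3 of them at their lower bound, against 0.07 over all genes.

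Setting Sox2 alone against both factors, the mean signal was 20.8-fold higher for Umod, 3.34-fold for Fetub and 20.0-fold for Teddm3. For Dynap it was at least 43.5-fold higher, with the undetected one of the 2 double arrays set to the lowest signal well above background. The double replicates themselves differed by 9.42-fold for Umod, 5.97-fold for Fetub, 6.90-fold for Teddm3 and at least 2.96-fold for Dynap, always with replicate 1 the higher. The Fetub difference was thus smaller than the spread of the double arrays and those of Umod and Teddm3 were larger, while the Dynap spread has only a lower bound. Pou5f1 was also higher on double replicate 1 (2.64 against 0.92), and its part in the spread was not tested. None of the arrays overlapped between these groups (19.6% of all genes in that direction), and the slide and the group cannot be told apart here.

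**Figure D2:**
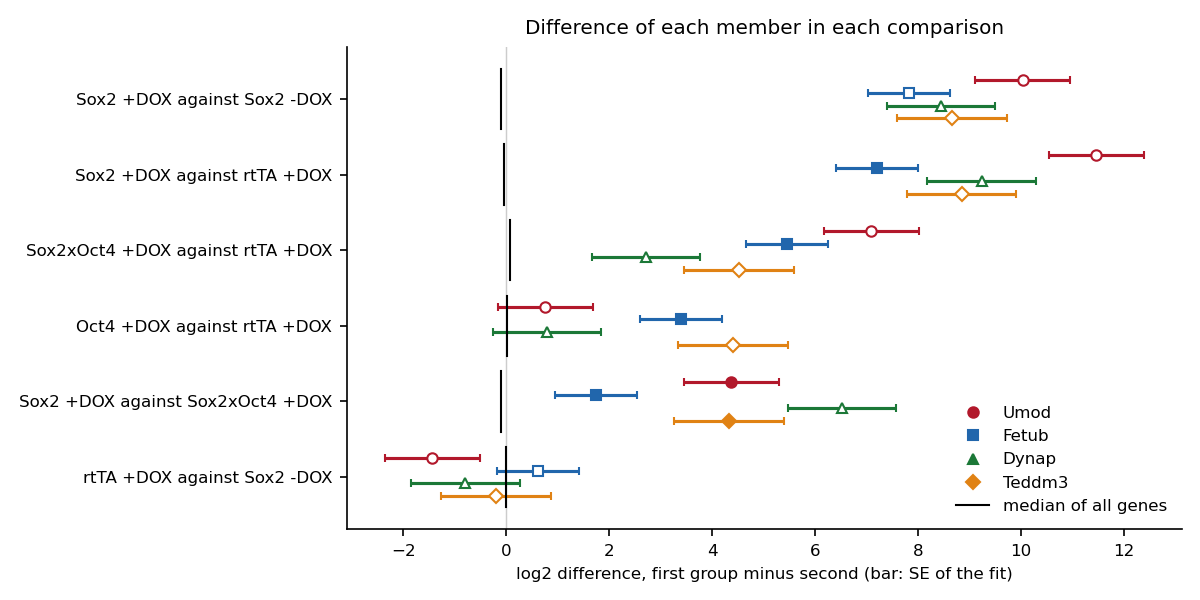
Log2 difference between group means, first group minus second, with the standard error of the fit (horizontal axis), for the 4 genes in each of 6 comparisons (vertical axis). Open symbols rest on at least 1 array not well above background and are not exact, and black bars mark the median of all 19054 genes; between Sox2 alone and both factors, Fetub stands at 1.74, Teddm3 at 4.32 and Umod at 4.38.

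Over the 10 arrays, with signals below detection set to the lowest level well above background, the 4 genes correlated with each other at a Pearson r between 0.77 (Fetub and Dynap) and 0.94 (Umod and Dynap). The arrays of a group share their treatment and mostly their slide, and the genes were chosen for one pattern, so these values are descriptive only.

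The genes next to the 4 on the chromosome were then taken from RefSeq gene order (GRCm38.p6), as the 3 nearest tested genes on each side of each, 24 in all. Both immediate neighbours of Umod and one of Fetub came up with them in Sox2-only mice. Gp2 encodes a zona pellucida domain glycoprotein of pancreatic zymogen granules and intestinal M cells, and is closely related to uromodulin. Pdilt encodes a testis-specific relative of protein disulfide isomerase, and Ahsg encodes fetuin-A, the hepatocyte paralog of fetuin-B. Of the 24 neighbours, these 3 rose and 1, Thpo, fell against the uninduced mice in limma's test with Benjamini-Hochberg adjustment over all genes, where 3.03% of all genes rose and 4.8% fell. Pdilt and Ahsg passed the brightness filter only through Sox2-only or double arrays. Their calls, and the counts that include them here and below, thus depend in part on genes tested because they were bright there. Higher calls were 38.7% of all calls in this comparison, and 49.3% under another background correction with quantile normalization. Without Sox2-only replicate 1, 1 neighbour rose, Pdilt.

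Gp2, whose probe lies 16.7 kb from that of Umod, read -1.15 and -3.98 on the uninduced arrays, -1.69 and -2.46 on the control arrays, -0.92 and -1.22 with Oct4 alone, 1.04 and -0.64 in the double mice and 4.84 and 3.38 with Sox2 alone. Unlike Umod it was well above background on all arrays, and the Sox2-only arrays were the highest. It rose 102-fold against the uninduced mice (log2 6.67 ± 0.94 SE, limma adjusted p = 0.0077). The log2 value was 8.09 without uninduced replicate 1, 5.26 without uninduced replicate 2 and 7.40 without Sox2-only replicate 2. The call was lost without Sox2-only replicate 1 (5.95, adjusted p = 0.062) and when only these 2 groups were fitted (adjusted p = 0.053). It was 3.91 higher on the log2 scale with Sox2 alone than with both factors, which did not pass (limma adjusted p = 0.071; 0.018 to 0.30 over 17 alternatives, of which 5 passed).

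Pdilt, 23.6 kb from Umod on the other side by its probe, was not well above background on any uninduced (-7.04 and -7.96), control (-7.55 and -6.85) or Oct4-only array (-8.16 and -7.80). It read -2.42 and -4.09 in the double mice and 0.28 and -2.11 with Sox2 alone. Like Umod, Pdilt was highest with Sox2 alone, next in the double mice and not well above background elsewhere. The Pdilt difference between Sox2 alone and both factors was 2.34 on the log2 scale and did not pass (limma adjusted p = 0.16). Brightness cannot be compared between the 2 probes. Pdilt rose at least 32.9-fold in Sox2-only against uninduced mice (log2 6.58 ± 0.81, limma adjusted p = 0.0049), a call kept in every alternative run, with log2 values of 5.39 without Sox2-only replicate 1 and 7.77 without replicate 2. In double against control mice it rose at least 11.5-fold (log2 3.95 ± 0.81, limma adjusted p = 0.030), a call lost under another background correction (0.85) and without control replicate 1 (adjusted p = 0.20), control replicate 2 (4.30) or double replicate 1 (3.11). The next genes out, Acsm5 and Thumpd1 beyond Pdilt and Gpr139 and Gprc5b beyond Gp2, had differences of 0.45, 0.67, -0.62 and 0.41 in Sox2-only against uninduced mice, and none passed.

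Ahsg, 40.3 kb from Fetub by its probe, was not well above background on the uninduced (-7.99 and -8.11) and control arrays (-8.51 and -7.01). It read -3.85 and -6.65 with Oct4 alone, the higher of these well above background, -1.27 and -2.89 in the double mice and -0.56 and -2.65 with Sox2 alone. The double and Sox2-only arrays of Ahsg overlapped, unlike those of Fetub. Ahsg rose at least 20.4-fold with Sox2 alone against uninduced mice (log2 6.44 ± 1.04, limma adjusted p = 0.012) and at least 25.9-fold with both factors against controls (log2 5.68 ± 1.04, limma adjusted p = 0.021). The first call was lost without Sox2-only replicate 1 (5.40) or uninduced replicate 1 (6.51) or 2 (6.38). The second was lost without control replicate 1 (4.93) or 2 (6.44) or double replicate 1 (4.87), and under another background correction (1.62).

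Hrg, which encodes the plasma histidine-rich glycoprotein and lies on the far side of Fetub 21.7 kb away by its probe, stayed between -5.80 and -4.10 on all arrays. Its difference in Sox2-only against uninduced mice was -0.51 ± 0.38 (limma adjusted p = 0.42). The 8 immediate neighbours, with probes 16.7 to 414 kb from that of the member, thus held all 3 genes that rose in this comparison. The 16 outer neighbours, 67.7 to 557 kb away, ranged from -1.39 to 1.17, with Thpo the gene that fell (-1.39 ± 0.31, limma adjusted p = 0.034). The Thpo call did not hold without any one of the uninduced, Sox2-only or control arrays (-1.54 to -1.24).

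Around Dynap and Teddm3 no neighbour rose against the uninduced mice. Immediate neighbours of Dynap on the array were Rab27b and 4930503L19Rik, at -0.97 and -1.26, and those of Teddm3 were Chrd and Ephb3, at -0.05 and 0.39. Their probes lie 256, 212, 414 and 70.1 kb away, all farther than those of the immediate neighbours of Umod and Fetub. The surroundings of the 4 genes were thus not measured at like distances. Rab27b, a small GTPase of vesicle secretion, fell in double against control mice (-2.15 ± 0.32, limma adjusted p = 0.012); the call was lost without control replicate 2 (-1.81) or double replicate 1 (-1.95), and when only these groups were fitted (adjusted p = 0.061). Teddm3 and Fetub share chromosome 16, with probes 1.79 Mb apart and 17 tested genes between them. Of these 17, 1, Ahsg, rose in Sox2-only against uninduced mice, where 3.03% of all genes rose.

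Against the controls, 3 of the 24 neighbours rose and 0 fell with Sox2 alone (3.23% and 5.14% of all genes), and 2 rose and 1 fell with both factors (3.19% and 3.15%). With Oct4 alone limma called 0 of 24 (1.01% of all genes in either direction), with 4 at an unadjusted p under 0.05. The difference of Sox2's effect with and without Oct4 was tested for these neighbours (1.42% of all genes passed) and did not pass for Gp2 (-4.91, limma adjusted p = 0.11), Pdilt (-1.55, adjusted p = 0.51) or Ahsg (-2.98, adjusted p = 0.33). The values for Pdilt and Ahsg are not exact, since both were not well above background in the controls.

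**Figure D3:**
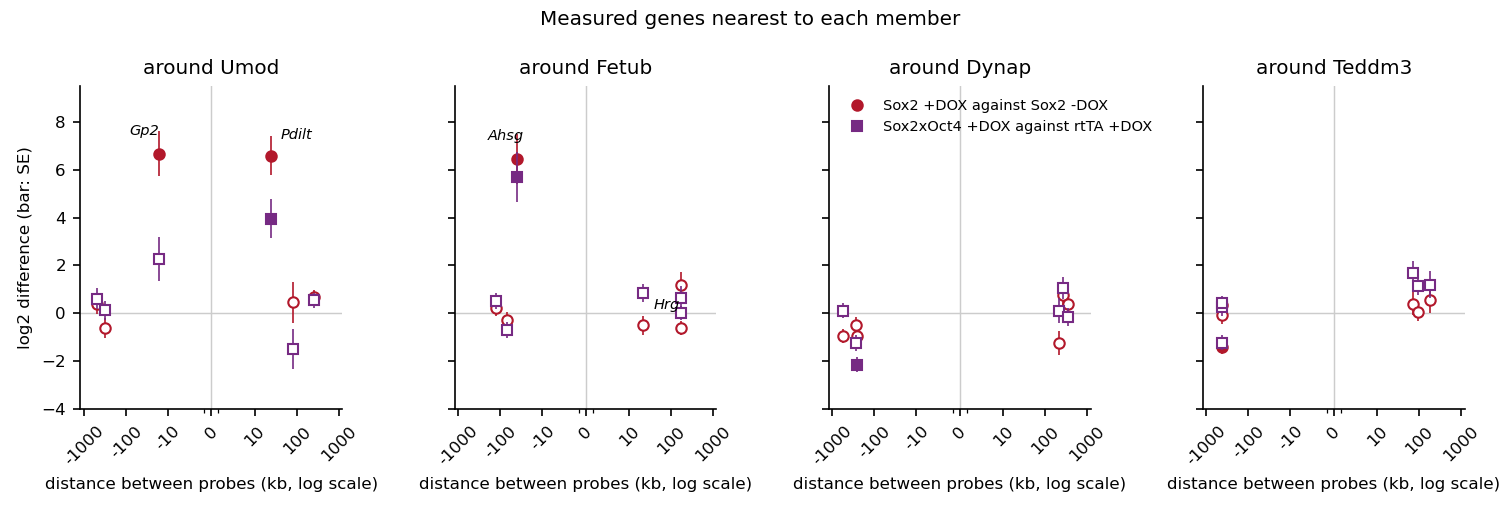
Log2 difference with its standard error (vertical axis) of the 24 neighbours against the distance between their probe and that of the member (horizontal axis, kb, log scale, negative before and positive after the member in the genome's order). Red circles compare Sox2-only with uninduced mice and purple squares double with control mice, filled where limma's adjusted p was under 0.05. Gp2, Pdilt and Ahsg stand at 6.67, 6.58 and 6.44, above all other neighbours.

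**Figure D4:**
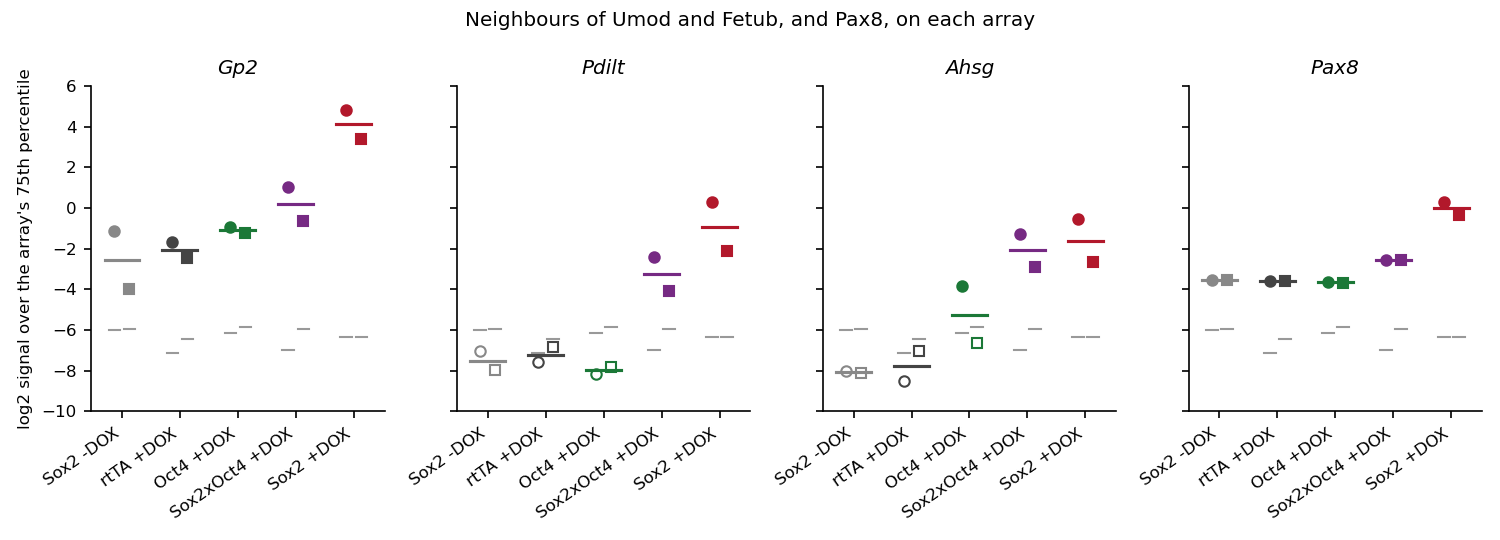
Log2 level over the array's 75th percentile (vertical axis) of Gp2, Pdilt, Ahsg and Pax8 on each array, by group (horizontal axis), with symbols as for the 4 genes. Pdilt and Ahsg are open, not well above background, on every uninduced and control array, and Pax8 lies between -3.68 and -2.55 outside the Sox2-only arrays.

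Genes of the tissues where the 4 are normally made were counted next, leaving out the 4 themselves. Of 16 other thick ascending limb genes on the array, 8 were bright enough to test and 1 rose with Sox2 alone against uninduced mice, the transcription factor gene Irx2, where 3.03% of all genes rose and 4.8% fell. With only these groups fitted, and from the values in the authors' deposited table, 0 of the 8 rose and 1 fell. The defining transport genes Slc12a1 (the NKCC cotransporter) and Kcnj1, with Cldn16 and Casr, were well above background on no array. The summed level of the list, relative to the 75th percentile, was 1.08 and 1.03 on the Sox2-only arrays and between 1.27 and 2.57 on all others. Irx2 was brightest with Oct4 alone (-2.29 and -3.17), and read -5.03 and -4.40 with Sox2 alone. Its call against uninduced mice (limma adjusted p = 0.025) was lost in 3 of 4 fits leaving out an array of these groups (1.90 to 2.99 on the log2 scale: uninduced replicate 1 and both Sox2-only replicates). It was also lost under another background correction (0.42), with a floor at the detection limit (1.24), with only these groups fitted (adjusted p = 0.082) and from those deposited values (2.19).

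Among 10 tested genes of other kidney segments, 1 rose, Pax8, a paired-box factor of kidney and thyroid development, where 3.03% of all genes rose. Pax8 read between -3.68 and -3.53 on all uninduced, control and Oct4-only arrays, -2.55 and -2.57 in the double mice and 0.32 and -0.36 with Sox2 alone. It rose 11.5-fold (log2 3.53 ± 0.29, limma adjusted p = 9.6e-04), a call kept in every alternative run. It was also 5.81-fold higher with Sox2 alone than with both factors (limma adjusted p = 0.0063; 0.84% of all genes were called higher), which was lost when only those 2 groups were fitted (adjusted p = 0.11). Among the listed genes it was thus one with the same order of groups at the top as the 4, and Slc12a3, Cdh16, Nphs1 and Kap were well above background on no array.

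Of 18 tested hepatocyte genes other than Fetub, 2 rose and 2 fell (3.03% and 4.8% of all genes), with a median of -0.22. Ahsg rose as above, and Ttr, which encodes the thyroxine carrier transthyretin, rose at least 14.8-fold (limma adjusted p = 0.012), a call lost without uninduced replicate 1 (3.79) or 2 (4.29) or when only these groups were fitted (adjusted p = 0.059). Tat, encoding tyrosine aminotransferase, fell 16.1-fold (log2 -4.01 ± 0.37, limma adjusted p = 0.0018). Without either uninduced replicate, 0 of the 18 rose. The summed level of the list overlapped between groups, at 35.6 and 40.7 with Sox2 alone and between 10.5 and 58.6 elsewhere, unlike Fetub, whose Sox2-only arrays were the highest.

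Alb, which encodes albumin and is the most used hepatocyte marker, was not well above background on the Sox2-only (-8.47 and -8.41), uninduced (-8.17 and -8.04) or control arrays (-9.22 and -8.51). It read -4.50 and -3.61 with Oct4 alone and -4.99 and -3.63 in the double mice. Alb was thus detected in the groups with an Oct4 transgene, where Fetub also had signal, and not where Fetub was highest. It passed the brightness filter only through the Oct4-only and double arrays, so its calls there were favoured by the filter. Against controls it rose at least 6.57-fold with Oct4 alone (limma adjusted p = 0.0048) and at least 5.51-fold with both factors (adjusted p = 0.0040). The first call was lost without control replicate 1 (4.45), and both were lost under another background correction (0.72 and 0.57). Its part in the Fetub signal with Oct4 alone was not tested.

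For Teddm3, 16 of 19 other epididymis and male tract genes were well above background on no array, its relatives Teddm1a and Teddm2 among them. Of the 2 that could be tested, limma called 0 in Sox2-only against uninduced mice, with 0 at an unadjusted p under 0.05. In that comparison 3.03% of all genes rose and 4.8% fell. The exocrine pancreas was listed because of Gp2: of 7 tested genes limma called 0 against uninduced mice, with 0 at an unadjusted p under 0.05, and the summed level was 3.11 and 2.90 with Sox2 alone and between 2.48 and 18.2 elsewhere.

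Stomach, foregut and squamous genes were listed because Sox2 marks those epithelia. Of 12 tested stomach and foregut genes 5 rose and 1 fell against uninduced mice, and of 24 tested squamous genes 6 rose and 0 fell, where 3.03% of all genes rose. Among those that rose, Tff2, Ivl and Fabp5 passed the brightness filter through the Sox2-only arrays alone. Krt4, Adh7 and Aldh3a1 passed it only through the Sox2-only and double arrays. These counts thus depend in part on genes that were tested because they were bright there. Lipf, gastric lipase, rose 165-fold (limma adjusted p = 0.0019) and Sox21, a relative of Sox2, 71.4-fold (adjusted p = 0.0026). Without Sox2-only replicate 1 their log2 differences went from 7.37 to 6.19 and from 6.16 to 5.19, and without replicate 2 to 8.55 and 7.12. Krt6a, a keratin of stressed squamous epithelium, rose at least 373-fold (adjusted p = 0.0018), Adh7 at least 156-fold (adjusted p = 3.8e-04) and Aldh3a1 at least 117-fold (adjusted p = 3.0e-04), the last of these being alcohol and aldehyde dehydrogenases of upper digestive and corneal epithelium. These 5 calls held in every alternative run. Of the stomach genes, 3 rose without uninduced replicate 1, and 2 without uninduced replicate 2 or without Sox2-only replicate 1; of the squamous genes, 4 rose in each of these fits. Of 20 stomach and foregut genes on the array, 6 were well above background on no array, among them Gkn1, Pgc, Cldn18 and Vsig1. Of 28 squamous genes these were 4, among them Flg and Sprr3. Muc5ac, Muc6, Krt5 and Krt14 were tested and not called. Aqp5 fell (-2.38, limma adjusted p = 0.019), a call lost when only these groups were fitted. With Oct4 alone against controls, across slides, 6 of the 24 squamous and 2 of the 12 stomach and foregut genes rose and 0 fell. In that comparison 1.01% of all genes were called in either direction. Krt6a was among the 6 (6.46, limma adjusted p = 0.021), and Trp63 counts in both lists. Sprr2d and Krtdap, also among the 6, passed the brightness filter through the Oct4-only arrays alone. The part of stomach and squamous cells or programs in the levels of the 4 genes was not tested.

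The order of levels varied among Lipf, Sox21, Krt6a, Adh7 and Aldh3a1. Lipf was higher on both double arrays (3.56 and 4.68) than with Sox2 alone (3.11 and 0.76). Aldh3a1 read 1.05 and 0.78 with Sox2 alone and -3.91 and -5.30 in the double mice, the order of Dynap.

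Of 18 tested ileal genes 0 rose and 2 fell (3.03% and 4.8% of all genes), Cubn (-4.21, limma adjusted p = 0.010) and Guca2b (-3.56, adjusted p = 0.018), with a median of -0.98. Both calls were lost without uninduced replicate 1 (-4.03 and -3.45) or 2 (-4.39 and -3.67) or Sox2-only replicate 1 (-3.39 and -2.73). Without Sox2-only replicate 2, 5 of the 18 fell. The summed level of the ileal list was 721 and 1021 with Sox2 alone and between 646 and 1638 elsewhere.

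Relatives and partners of the 4 proteins were counted in the same way. In the zona pellucida domain family of uromodulin, 1 of 5 tested relatives rose, Gp2, and 0 fell. In the cystatin superfamily of fetuin-B, 1 of 13 rose, Ahsg, and 6 fell (3.03% and 4.8% of all genes), with a median of -3.37. Those that fell include the stefins Csta2 (-6.93, limma adjusted p = 0.012) and Stfa2 (at least 6.57-fold lower, not well above background with Sox2 alone, adjusted p = 0.0095), protease inhibitors of myeloid cells, and Cst6 (-3.37, adjusted p = 0.0080). Stefin genes have near-identical copies, so their probes may report more than 1 gene. Without uninduced replicate 1, 0 of the 13 rose and 0 fell (Csta2 -6.05, Cst6 -3.26), and without Sox2-only replicate 1, 0 rose and 1 fell.

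The protease that fetuin-B inhibits, Astl, was well above background on no array. Of 3 tested members of its astacin and meprin family, 1 fell, Mep1b (-3.44, limma adjusted p = 0.016), a brush border meprin, where 4.8% of all genes fell. The Mep1b call was lost without uninduced replicate 1 (-3.18) or 2 (-3.71) or Sox2-only replicate 1 (-2.49). In the family of Teddm3, 1 of 2 tested relatives rose, Tmem45a (2.01, limma adjusted p = 0.045), where 3.03% of all genes rose. The Tmem45a call was lost without any one array of these groups (1.86 to 2.16). With 2 or 3 genes tested, a single call cannot be read as a result about a family. Of 12 dynactin subunit genes, the partners named for Dynap, limma called 0, where 3.03% of all genes rose and 4.8% fell. Of these 12, 0 had an unadjusted p under 0.05 in limma, and their differences ran from -0.41 to 0.54.

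**Figure D5:**
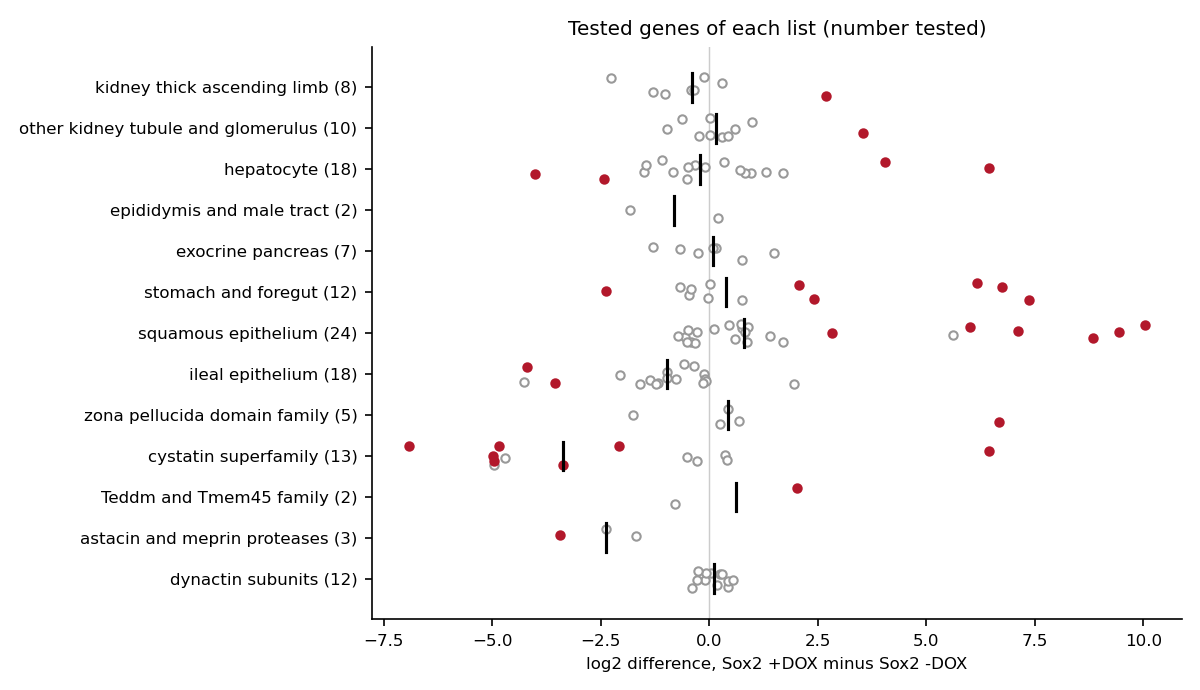
Log2 difference between Sox2-only and uninduced mice (horizontal axis) of each tested gene of the 13 lists (vertical axis, number tested in brackets), without the 4 genes. Red points passed limma's adjusted p under 0.05, open points did not, and black bars are list medians. The squamous list reaches 10.04 at Krt6a, and the cystatin superfamily has its median at -3.37.

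Across the 10 arrays, the 5 genes most like each member were found by Pearson correlation of levels set to at least the detection limit, as a description over arrays that share groups and slides. Umod was followed most closely by Them5 (r = 0.993), Adh7 (0.987), Pknox2 (0.987), Hbb-bh1 (0.986) and Inpp5f (0.983). Them5 encodes a mitochondrial acyl-CoA thioesterase and was at least 23.3-fold higher with Sox2 alone than uninduced. Fetub was followed by Ly6g6e (0.983), LOC672362 (0.981), Ttc21b (0.973), Dusp4 (0.970) and Thop1 (0.968), of which Ly6g6e, a Ly6 family surface protein gene, was 63.8-fold higher and the other 4 were 3.89-fold to 6.34-fold higher.

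Dynap was followed by Aldh3a1 (0.989), AK077083 (0.984), Pmch (0.981), Gpr83 (0.977) and Slc9a4 (0.976). Aldh3a1 stood apart by size among these, at least 117-fold higher with Sox2 alone than uninduced and 5.52 higher on the log2 scale than with both factors. Teddm3 was followed by Mrpl45 (0.972), Mios (0.971), Cdk19 (0.968), Trmt5 (0.966) and Zfp958 (0.959), whose differences were small, from 1.53-fold to 2.78-fold. No gene was among the 5 for more than 1 member.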

How the data were processed

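RNA of 10 ileum samples was labelled with Cy3 and hybridised to one-colour Agilent arrays, scanned and extracted with Feature Extraction 9.1 per the submitters' processing notes, while the file headers give 9.5.3.1, 10.7.1.1 and 10.7.3.1 by slide. The deposited values are the processed signal intensity of each spot, already background-corrected per the file headers. A table deposited by the authors for the TetON-Sox2 arrays alone, used as an alternative, holds linear ratios of the signal to 1 number per array, by a step that neither the file headers nor the labels state. That number was the same within 0.001 for 72.2% to 75.4% of probes, and 24.6% to 27.7% stood at a floor.

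Control and outlier spots were left out, spots of a probe averaged, and log2 of the signal taken minus the array's 75th percentile (544.2 to 1612.8 as signal). RefSeq tables (GRCm38.p6) named 80.3% of probes. A probe had to be well above background on each array of at least 1 group; for a gene with several probes the one of highest mean level was taken, giving 19054 genes. limma 3.58.1 (R 4.3.3) fitted all 5 groups together, with Benjamini-Hochberg adjustment over all genes and calls at an adjusted p under 0.05. The fit was tested on simulated data in 10 runs, with 200 genes raised in the Sox2-only group. It recovered 45.1% of rises of 2 and 85.8% of rises of 4 on the log2 scale, and 3.70% of calls were false. A gene that was not called may therefore still have changed. The other background correction in the alternative runs, normexp, added an offset of 50 to every spot signal before quantile normalization. Such an offset narrows log2 differences that involve dim probes. The 4 genes and the gene lists were chosen with earlier results of these data known. Genes named are the members, the induced genes, called neighbours among the 3 nearest tested genes on each side and up to 2 others per member, up to 4 called genes per list, and the 5 genes most correlated with each member. Alb, the outer neighbours of Umod and the genes named as well above background on no array were added after their values were seen. So were Tff2, Ivl, Fabp5, Aqp5, Muc5ac, Muc6, Krt5 and Krt14. Deviations of same-numbered arrays correlated between -0.13 and 0.27, over 0.1 in 5 of 10 pairs of groups and not in all, so the numbers were not taken as pairing the samples.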

Additional observations from a re-analysis of the deposited data

Results flagged for a closer look

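For 6 named genes of the lists, limma called a difference in the effect of Sox2 between mice with and without the Oct4 transgene. These genes were named because they were called in comparisons of these same arrays, so the share of all genes is no baseline for them. The difference is the log2 change from Oct4-only to double mice minus that from control to Sox2-only mice, tested in limma with adjustment over all genes, where 1.42% of genes passed. It was -10.11 for Krt6a (adjusted p = 0.018) and -6.29 for Aldh3a1 (adjusted p = 0.0097). For the transcription factor genes it was -4.99 for Irx2 (adjusted p = 0.025) and -2.47 for Pax8 (adjusted p = 0.037). It was -4.14 for Adh7 (adjusted p = 0.046) and -2.91 for Dmbt1 (adjusted p = 0.042), a mucosal scavenger receptor gene.

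Of the 10 fits that each left out 1 array, Aldh3a1 passed in 9, failing without control replicate 1 (-5.91, adjusted p = 0.052), and Krt6a in 8, failing without Sox2-only replicate 1 (-9.62) or control replicate 1 (-9.46). Irx2 passed in 5, Pax8 and Adh7 in 2 and Dmbt1 in 1 of them. With normexp, Krt6a (adjusted p = 0.061), Irx2 (0.065) and Dmbt1 (0.077) failed, and with quantile normalization Dmbt1 (0.077). Without the filter on dim probes, Pax8 (0.065), Adh7 (0.068) and Dmbt1 (0.070) failed, as they did with only the groups compared (0.076, 0.087 and 0.080). Adh7 also failed with a variance trend (0.053), and Adh7 and Dmbt1 with the replicate block (0.052 each).

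The values of Krt6a, Aldh3a1, Adh7 and Irx2 are not exact. All 4 were not well above background in the controls, and Aldh3a1 and Adh7 also not with Oct4 alone. With a floor at the detection limit they were -8.75, -6.31, -4.68 and -3.91. These comparisons cross slides, so slide and group cannot be told apart. No explanation was tested.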

How the results depend on the processing

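Of the values for single genes, 1357 alternatives were counted as the same, 256 lost a call, 5 gained one, 31 moved and 0 reversed. These counts mix 2 rules. For genes other than the members, the same means that direction and side of the threshold were kept. The members have no calls, so for them it means a difference within the spread of the main value. Their direction was not checked, so the count of reversals does not cover them. The count of genes called in Sox2-only against uninduced mice (1493) was 933 without the filter on dim probes, 619 with only the groups compared and 693 from the authors' table. Against controls (1596) it was 1045 without the filter and 935 with only the groups compared, and for double mice (1208) 776 and 473. With Oct4 alone (192) it was 111 with normexp, and for Sox2-only against double mice (495) 52 with only the groups compared. Control against uninduced mice (0, with 1069 at an unadjusted p under 0.05 in limma) gave 1 with a floor, 2 with a variance trend, 2 with the replicate block and 13 with only the groups compared. The difference of Sox2's effect with and without Oct4 (270) gave 173 with normexp, 148 without the filter and 105 with only the groups compared.

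Of each array's median level over the 4 genes, the difference between group means moved from 9.18 to 4.47 with normexp, 7.35 with a floor and 8.54 in the authors' table for Sox2-only against uninduced mice, and against controls it was 4.54 with normexp, 9.71 with quantile normalization and 8.17 with a floor. With normexp it was 1.40 for double mice, 0.48 for Oct4 alone and -0.069 for control against uninduced mice (-0.30 with quantile normalization). Neighbours that rose in double mice (2) were 0 with normexp; these neighbour counts were chosen after seeing the data.

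Leaving out 1 array at a time, the counts called ranged from 165 to 1745, 195 to 2178 (Sox2-only against controls), 105 to 1249 (double), 35 to 215 (Oct4), 81 to 679 (Sox2-only against double), 0 to 11 (control against uninduced) and 24 to 555 (the difference of effects). The differences of these medians ranged, in that order of comparisons, from 8.90 to 9.46, 9.94 to 10.06, 4.30 to 7.31, 1.89 to 3.29, 2.69 to 5.70 and -1.10 to -0.54. Neighbours that rose ranged from 1 to 3 with Sox2 alone and from 0 to 2 in double mice. With the replicate number as a block the counts were 1478, 1675, 1201, 215, 588 and, for the difference of effects, 247, 3 neighbours rose in double mice, 1 ileal gene rose and 4 fell with Sox2 alone, and Gp2 passed in Sox2-only against double mice (adjusted p = 0.018). A slide block could not be fitted beside the groups, and averaging probes gives no other value, since each of the 4 genes has 1. Signal over background limits the dim groups, where folds are bounds.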
